A study of Homo sapiens with 18 samples.

Results

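The 10 genes described here encode subunits of PRC1.6, the noncanonical Polycomb complex built around PCGF6. They are PCGF6, L3MBTL2, MGA, MAX, E2F6, TFDP1, RING1, RNF2, RYBP and YAF2, taken by symbol from a table of raw read counts, where all 10 of them were found among 57133 genes. RNA-seq was performed on human induced PSCs of the established line PGP1, grown in mTeSR1 on Matrigel. There were 2 libraries of wild-type (WT) cells, 2 of PCGF6-KO clone 1 (KO1) and 2 of PCGF6-KO clone 2 (KO2), with no other allele or agent named. Each knockout genotype was represented by 1 clone, derived after a Cas9 deletion in the first exon of PCGF6 on both alleles, so a clone and its genotype cannot be told apart. The libraries held between 15877396 and 18918609 counts. The labels do not say whether replicate libraries came from separate cultures, so p-values measure the spread between these libraries, which may be technical.

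Polycomb complexes hold developmental genes silent through marks on chromatin. In PRC1.6, PCGF6 pairs with RING1 or RNF2, the E3 ligases that ubiquitinate histone H2A, and RYBP or YAF2 occupies a shared position beside them. MGA with MAX and E2F6 with TFDP1 are DNA-binding pairs that recognise E-box and E2F sequences, and L3MBTL2 is an MBT-domain protein that binds chromatin. The complex is best known for silencing germ line genes in mouse embryonic stem cells.

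The promoter windows are shown for PCGF6, the targeted gene, and for the members with the largest differences from WT, YAF2, RYBP and E2F6. They are marked for exact matches to sequences of the kinds that the complex's own DNA-binding subunits recognise. Each window runs from 250 bases before to 50 bases after a RefSeq transcription start (build GRCh38.p14), 5′ to 3′ on the strand of the gene, and all 4 genes lie on the reverse strand. Capitals mark the E-box CACGTG or the E2F-type sequence GCGGGAA, searched on both strands; the search strings share no bases in these windows.
PCGF6, chr10:103351091-103351390: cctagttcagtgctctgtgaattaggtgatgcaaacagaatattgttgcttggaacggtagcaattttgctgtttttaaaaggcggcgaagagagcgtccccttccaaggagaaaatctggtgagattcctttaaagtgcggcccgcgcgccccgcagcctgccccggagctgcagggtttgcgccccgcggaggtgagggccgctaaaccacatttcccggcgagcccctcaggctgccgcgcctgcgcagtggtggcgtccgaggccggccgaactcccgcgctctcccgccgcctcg
YAF2, chr12:42238199-42238498: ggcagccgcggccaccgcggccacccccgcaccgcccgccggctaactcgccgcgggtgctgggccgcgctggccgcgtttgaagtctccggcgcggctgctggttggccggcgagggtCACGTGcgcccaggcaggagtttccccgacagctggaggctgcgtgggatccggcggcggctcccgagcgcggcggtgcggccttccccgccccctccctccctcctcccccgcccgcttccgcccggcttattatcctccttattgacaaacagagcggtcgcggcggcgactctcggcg
RYBP, chr3:72446574-72446873: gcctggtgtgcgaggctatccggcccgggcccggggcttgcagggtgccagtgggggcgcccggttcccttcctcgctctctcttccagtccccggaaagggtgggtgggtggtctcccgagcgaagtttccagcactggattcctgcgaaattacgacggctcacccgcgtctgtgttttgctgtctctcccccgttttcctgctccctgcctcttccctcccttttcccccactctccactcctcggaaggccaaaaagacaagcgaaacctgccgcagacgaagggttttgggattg
E2F6, chr2:11466112-11466411: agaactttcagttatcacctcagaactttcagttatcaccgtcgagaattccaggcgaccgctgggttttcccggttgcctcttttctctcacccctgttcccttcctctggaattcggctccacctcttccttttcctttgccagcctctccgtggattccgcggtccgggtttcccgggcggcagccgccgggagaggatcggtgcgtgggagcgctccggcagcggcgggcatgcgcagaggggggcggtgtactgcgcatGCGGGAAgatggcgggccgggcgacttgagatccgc
YAF2 was the 1 member with CACGTG, which began 131 bases before its start site, and this sequence was present in 7.26% of all 35116 promoter windows. GCGGGAA, present in 6.55% of windows, was found in 2 members, in E2F6 after the start site and in RNF2. All 10 members were matched, with 13 windows in all, since MGA has 3 start sites in the table and MAX has 2. A match is a description of letters and does not show that a factor binds there. Variants of the 2 sequences were not searched, so a window without a match is not shown to lack a binding site.

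Of 8 pluripotency markers, 1 (SOX2) was called lower in KO2, by the test given below, against 12.5% of tested genes. In KO1, SOX2 was at −0.41 on the log2 scale, which passed the adjusted p but not the fold change threshold. At the adjusted p alone, 5 of the 8 were lower in KO1 and 4 in KO2, against 21.1% and 24.2% of tested genes. Higher at the adjusted p alone were 1 and 2, against 24.1% and 26.2%. The lowest level among the 8 markers was that of NANOG in WT. Their summed level was 6829 and 7119 CPM (counts scaled by TMM library size) in WT and between 5783 and 5995 CPM in the PCGF6-KO libraries. The summed level of 8 mesendoderm markers was 4.91 and 3.78 CPM in WT and between 685.5 and 921 CPM in PCGF6-KO. SOX17, HAND1 and MESP1 were at 0 counts in WT, and MESP1 had at most 13 counts in PCGF6-KO. That of 5 fibroblast markers was 223 and 227 CPM in WT and between 1441 and 1739 CPM in PCGF6-KO, mostly from COL1A1, COL1A2 and COL3A1. LUM and DCN were at 0 in WT, and DCN stayed near the floor in PCGF6-KO, with at most 17 counts. Of 4 neuroectoderm markers, SOX1 never exceeded 1 count, and the sum was 349 and 395 CPM in WT and between 622 and 739 CPM in PCGF6-KO, mostly from NES. OTX2 of the same list was called lower, with 72.0 and 72.1 CPM in WT and between 28.8 and 31.6 CPM in PCGF6-KO. The part of all these markers in the results below was not tested. In bulk RNA, fewer cells that express a gene and less RNA per cell cannot be told apart.

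PCGF6 was lower in both clones, but not to the same level. The libraries held 268 and 300 PCGF6 counts in WT, 99 and 103 in KO1, and 187 and 159 in KO2, or 16.5 and 18.0 CPM, 5.18 and 5.67 CPM, and 10.3 and 9.91 CPM. The 3 groups did not overlap, and the mean level was 31.5% of WT in KO1 and 58.7% in KO2. The gene lies on chromosome 10 (103302796 to 103351144, reverse strand, GRCh38), and its counts were summed over all exons, whereas the edit removed part of the first exon, which spans 434 bases of the 10-exon canonical transcript. Reads from the rest of the transcript are still counted, so these counts alone do not check the genotype of a clone. In the edgeR fit (quasi-likelihood F-test, p-values adjusted by Benjamini-Hochberg over the 17672 genes tested), PCGF6 fell by 1.67 on the log2 scale in KO1 (standard error 0.14, adjusted p = 1.0e-10) and by 0.77 in KO2 (standard error 0.13, adjusted p = 1.2e-05). The difference of KO2 from KO1 was 0.90 on the log2 scale (95% interval 0.60 to 1.2, adjusted p = 5.4e-05, same test).

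**Figure D1:**
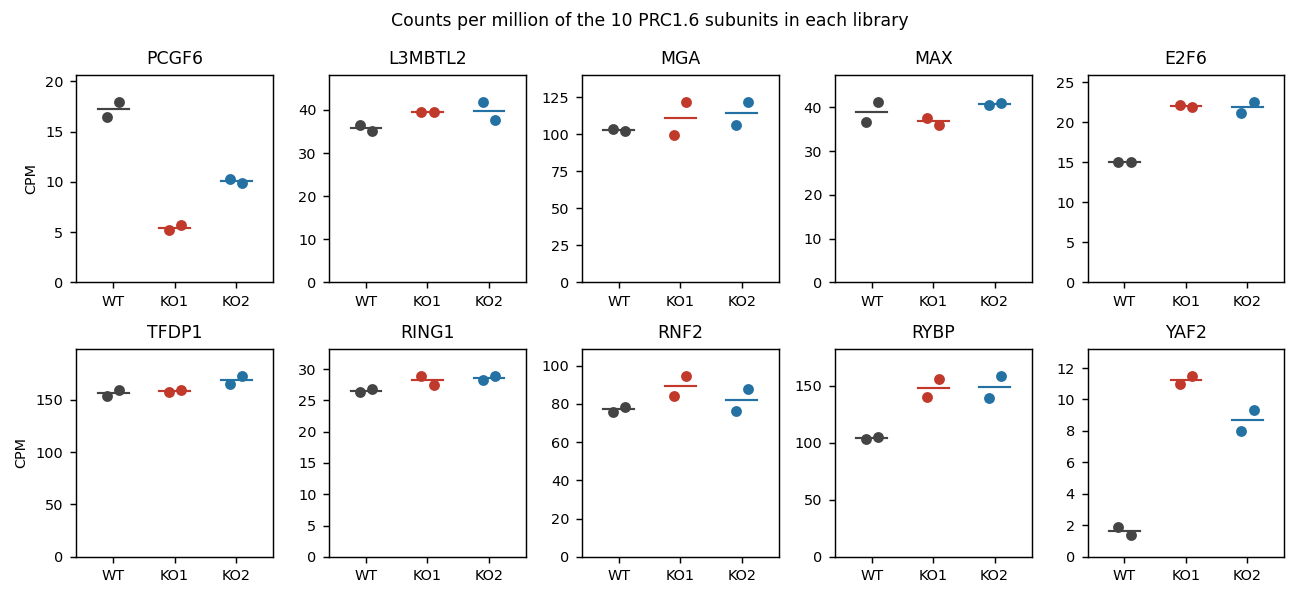
Level of each PRC1.6 subunit in CPM (counts scaled by TMM library size; linear axes starting at 0), with 1 point for each library and a line at the mean of 2 libraries, in WT, KO1 and KO2. PCGF6 sits lowest in KO1, YAF2 is between 1.38 and 1.90 CPM in WT and between 8.00 and 11.5 CPM in the PCGF6-KO libraries, and MAX and TFDP1 overlap between WT and PCGF6-KO.

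Of the 10 members, 2 were called in KO1 (an adjusted p below 0.05 with a log2 fold change beyond 0.6 in either direction), against 24.8% of all tested genes, and 2 in KO2, against 29.4%. The member called higher was YAF2 in each clone, against 16% of tested genes called higher in KO1 and 16.9% in KO2. The member called lower was PCGF6, against 8.8% and 12.5%. With the adjusted p alone, 5 members passed in KO1 (45.3% of tested genes) and 4 in KO2 (50.4%). Of these, 4 were higher in KO1 (24.1% of tested genes) and 3 in KO2 (26.2%), and PCGF6 was lower in both (21.1% and 24.2%). These counts lie near the shares of all genes and are no result about the members as a group. Their median log2 fold change was 0.13 in KO1 and 0.13 in KO2, where that of all tested genes was 0.00 in each. The comparison of KO2 with KO1 called 1 member, PCGF6, against 7.87% of tested genes (3.73% higher and 4.14% lower). With the adjusted p alone it was also the 1 member that passed, against 19.5% of tested genes (10.7% higher and 8.82% lower). The comparisons of the clones with WT share the WT libraries, so their values are given side by side and are not independent of each other.

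**Figure D2:**
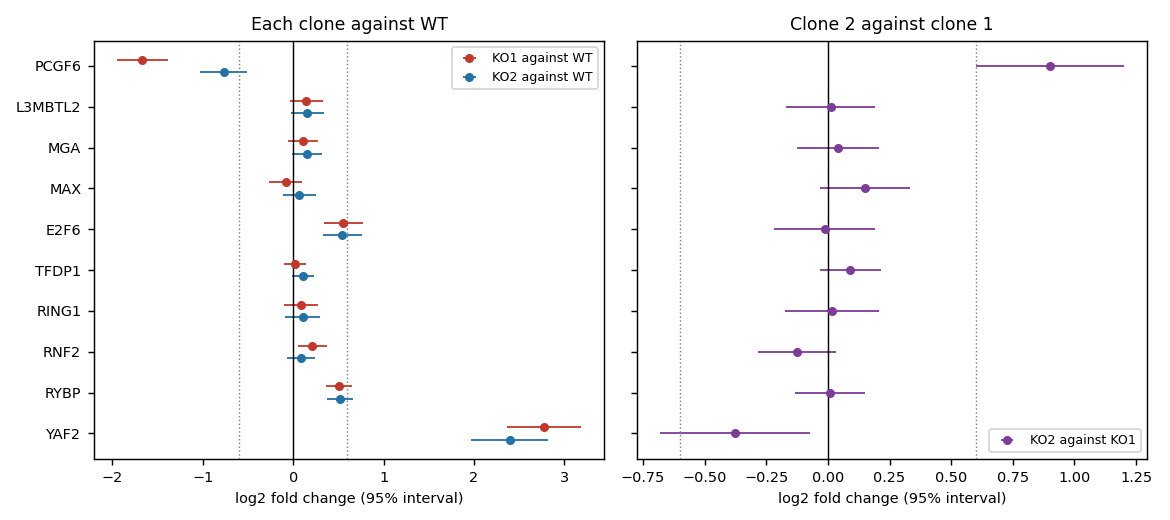
Log2 fold change of the 10 subunits with 95% intervals from edgeR's quasi-likelihood fit, for each clone against WT (left) and for KO2 against KO1 (right, on its own scale); dotted lines mark the threshold of 0.6 in either direction. YAF2 is at 2.77 and 2.40, E2F6 and RYBP lie between 0.51 and 0.55, and between the clones the unadjusted intervals of PCGF6 and YAF2 leave out 0, of which PCGF6 passed the adjusted test.

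YAF2 and RYBP encode paralogous zinc finger proteins that bind RING1 and RNF2 and raise their ligase activity. YAF2 had 31 and 23 counts in WT, 210 and 209 in KO1, and 145 and 150 in KO2. This was 1.90 and 1.38 CPM in WT, 11 and 11.5 CPM in KO1, and 8.00 and 9.35 CPM in KO2. All 4 PCGF6-KO libraries were above both WT libraries, and both libraries of KO1 were above those of KO2. YAF2 rose by a log2 fold change of 2.77 in KO1 (95% interval 2.36 to 3.18, adjusted p = 7.3e-12) and of 2.40 in KO2 (95% interval 1.97 to 2.82, adjusted p = 2.4e-10) in the edgeR fit, or 6.83-fold and 5.26-fold. The WT level rests on 2 libraries, and whether it is typical of PGP1 was not tested. By size of increase it ranked 718 of 17672 tested genes in KO1 and 1010 in KO2. The difference of KO2 from KO1, −0.38 (95% interval −0.68 to −0.07), did not pass the adjusted test (adjusted p = 0.0749), and its adjusted p was between 0.0451 and 0.410 over the alternatives tried.

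RYBP had 1683 and 1756 counts in WT, 2689 and 2838 in KO1, and 2535 and 2547 in KO2. This was 103 and 105 CPM in WT, 141 and 156 CPM in KO1, and 140 and 159 CPM in KO2. The groups of WT and PCGF6-KO did not overlap, while those of the clones did. RYBP differed from WT by 0.51 on the log2 scale in KO1 (95% interval 0.36 to 0.65, adjusted p = 1.3e-06) and by 0.52 in KO2 (95% interval 0.37 to 0.66, adjusted p = 8.5e-07, same test), under the fold change threshold in each. Without replicate 1 of KO2 the difference in KO2 was 0.61 and passed it. Between the clones the difference was 0.01 (95% interval −0.13 to 0.15), and its sign changed under several alternatives.

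YAF2 made up a small part of the pair in every library, with a larger share in PCGF6-KO than in WT. Per base of exon, YAF2 was 1.21% and 0.864% of the sum of YAF2 and RYBP in WT, 4.94% and 4.67% in KO1, and 3.67% and 3.77% in KO2. Every PCGF6-KO library was above both WT libraries. The log2 ratio of YAF2 to RYBP was 2.09 higher in PCGF6-KO than in WT, 2.29 in KO1 and 1.90 in KO2. A two-sided exact permutation test over the 4 PCGF6-KO and 2 WT libraries gave p = 0.0667, the smallest that its 15 arrangements allow (adjusted p = 0.1 over 3 ratios), so it cannot pass 0.05. The deposited length of YAF2, 10839 bases of summed exons, is longer than its canonical transcript of 4096 bases, whereas both lengths of RYBP are 7215 bases. The level of YAF2 relative to RYBP depends on this choice, and the difference between groups does not.

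RNF2, which encodes RING1B, and RING1, which encodes RING1A, are the catalytic subunits. RNF2 had 75.7 and 78.5 CPM in WT, 84.1 and 94.6 CPM in KO1, and 76.3 and 87.5 CPM in KO2, where WT and KO2 overlap. Its difference from WT was 0.21 on the log2 scale in KO1 (95% interval 0.05 to 0.37, edgeR's adjusted p = 0.0265), under the fold change threshold. The adjusted p was 0.228 without replicate 2 of KO1, 0.173 and 0.0585 without replicate 1 or 2 of WT, and 0.0976 by DESeq2. In KO2 the difference was 0.09 (95% interval −0.07 to 0.25, adjusted p = 0.378, same test). RING1 had 26.3 and 26.8 CPM in WT, 28.9 and 27.5 CPM in KO1, and 28.3 and 28.9 CPM in KO2. All 4 PCGF6-KO libraries were above WT, by little. The log2 differences of 0.09 in KO1 (95% interval −0.11 to 0.28) and 0.10 in KO2 (95% interval −0.09 to 0.30) did not pass the test (adjusted p = 0.473 and 0.374). RNF2 was 56.3% and 56.6% of the sum of both ligases per base of exon in WT, 56.5% and 60.6% in KO1, and 54.6% and 57.5% in KO2. The log2 ratio of RNF2 to RING1 differed by 0.05 between PCGF6-KO and WT (two-sided exact permutation test, p = 0.733, adjusted p = 0.733 over 3 ratios), and this sign turned without replicate 2 of KO1.

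In the DNA-binding pair of E2F6 and TFDP1, E2F6 passed the adjusted test in both clones, and whether its difference exceeded that of TFDP1 was not tested. E2F6, a repressive E2F family member, had 244 and 250 counts in WT, 424 and 397 in KO1, and 383 and 362 in KO2. This was 15 CPM in each WT library, 22.2 and 21.8 CPM in KO1, and 21.1 and 22.6 CPM in KO2, so that WT and PCGF6-KO did not overlap and the clones did. The log2 difference from WT was 0.55 in KO1 (95% interval 0.34 to 0.77, adjusted p = 9.2e-05) and 0.54 in KO2 (95% interval 0.32 to 0.76, adjusted p = 0.000112) in the edgeR fit, or 1.47-fold and 1.46-fold, under the fold change threshold in both. TFDP1, the dimerization partner of E2F proteins, had between 154 and 160 CPM in WT, between 158 and 160 CPM in KO1 and between 165 and 173 CPM in KO2. Its log2 difference from WT was 0.02 in KO1 (95% interval −0.11 to 0.14) and 0.11 in KO2 (95% interval −0.02 to 0.23), which did not pass the test (adjusted p = 0.830 and 0.139). The sign of the KO1 value turned under upper-quartile normalization. Pseudogene copies named after E2F6 had at most 1 count, and RNF2P1 had at most 8, whereas the handling of multi-mapped reads is not given in the sources used here.

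MGA, MAX and L3MBTL2 did not pass the adjusted test in either clone in the 3-group fit (edgeR's adjusted p between 0.134 and 0.561). MGA, the large scaffold with a T-box and a basic helix-loop-helix domain, had 104 and 102 CPM in WT, 99.6 and 122 CPM in KO1, and 106 and 122 CPM in KO2, so its replicates spread more within the clones than within WT. Its log2 differences from WT were 0.11 (95% interval −0.06 to 0.27) and 0.15 (95% interval −0.02 to 0.32). The KO1 value was −0.04 without replicate 2 of KO1 and 0.25 without replicate 1 (edgeR's adjusted p = 0.0104). In KO2, edgeR's adjusted p for MGA was 0.0387 with only the 2 groups fitted, 0.0485 without replicate 2 of KO1 and 0.0303 without replicate 1 of KO2, and 0.714 without replicate 2 of KO2. MAX, the dimerization partner of MGA and of MYC, had 36.7 and 41.3 CPM in WT, 37.7 and 35.9 CPM in KO1, and 40.6 and 41.1 CPM in KO2, with log2 differences of −0.08 (95% interval −0.27 to 0.10) and 0.07 (95% interval −0.12 to 0.25). The sign of the MAX value turned when a WT library was left out. L3MBTL2 had 36.5 and 35.1 CPM in WT, 39.5 CPM in each KO1 library, and 41.9 and 37.6 CPM in KO2, with log2 differences of 0.14 (95% interval −0.04 to 0.32) and 0.15 (95% interval −0.03 to 0.34). These intervals leave out a change of 0.6 in either direction for all 3 genes. Each of them shares exon bases with a gene on the opposite strand, 822 bases with FNTB in the case of MAX, so without a stated strand setting their reads can be shared.

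Comparing levels between the members per base of exon, in TPM (length-scaled levels that sum to the same total in each library) computed from the deposited counts and lengths, TFDP1 was the highest in every library. In WT it had 186 ± 5.62 TPM (SD, n = 2), followed by RNF2 with 84.2 ± 2.39, RING1 with 65.0 ± 1.16 and RYBP with 64.3 ± 0.999 TPM. MAX had 39.1 ± 3.4 TPM, MGA 25.9 ± 0.256, PCGF6 25.5 ± 1.66, L3MBTL2 24.7 ± 0.623, E2F6 16.4 ± 0.0442 and YAF2 0.673 ± 0.151 TPM. RING1 and RYBP lay within their spread of each other, as did MGA and PCGF6, and PCGF6 and L3MBTL2. In the clones RYBP, with 89.9 ± 7.48 TPM (n = 2) in KO1 and 85.1 ± 8.02 TPM (n = 2) in KO2, stood above RING1 in every library, and PCGF6, with 7.88 ± 0.576 and 13.8 ± 0.326 TPM, stood below E2F6. PCGF6 made up 4.65 and 4.92% of the summed TPM of the 10 members in WT, 1.36 and 1.43% in KO1, and 2.66 and 2.40% in KO2. With canonical transcript lengths, a scaling added after the data were seen, the order changed. In WT, MAX (11.4 and 12.3% of the sum) then stood above RING1 (9.41 and 9.27%) and RYBP (8.93 and 8.76%), and L3MBTL2 (7.13 and 6.61%) above MGA (5.30 and 5.02%) and PCGF6 (4.59 and 4.83%). With these lengths YAF2 (1.56 and 1.58%) was above PCGF6 (1.35 and 1.42%) in KO1 and below it in the other libraries.

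Of 5 other PCGF genes, which define the other noncanonical and the canonical PRC1 complexes, 1 was called higher in KO1 and 2 in KO2, against 16% and 16.9% of all tested genes. Their median log2 fold change was 0.39 in KO1 and 0.20 in KO2, beside 0.00 for all tested genes. BMI1 (PCGF4), a subunit of canonical PRC1, had 50 and 51 counts in WT, 156 and 200 in KO1, and 202 and 207 in KO2, with log2 fold changes of 1.64 (adjusted p = 5.4e-08) and 1.97 (adjusted p = 1.1e-09) in the edgeR fit. PCGF1, the PRC1.1 subunit, was at 0.44 in KO1 (adjusted p = 0.0239, under the fold change threshold) and rose by 0.82 in KO2 (adjusted p = 6.9e-05, same test). PCGF2, the most abundant of the 6 genes per base of exon, and PCGF3 had log2 differences between 0.01 and 0.20 in both clones. Of these, the 0.20 of PCGF2 in KO2 passed the adjusted test (adjusted p = 0.0126, same test), under the fold change threshold. PCGF5 was at 0.39 in KO1 (adjusted p = 0.0236), also under that threshold, and at 0.19 in KO2 (adjusted p = 0.288, same test). PCGF6 was 9.39 and 10.3% of the summed level of the 6 PCGF genes per base of exon in WT, 2.92 and 3.37% in KO1, and 5.15 and 5.03% in KO2. BMI1 was 1.23 and 1.22% in WT, 3.24 and 4.59% in KO1, and 3.91 and 4.6% in KO2, so that its share in the clones stayed under that of PCGF6 in WT. The log2 ratio of PCGF6 to the other 5 genes was 1.38 lower in PCGF6-KO than in WT (two-sided exact permutation test of 4 PCGF6-KO against 2 WT libraries, p = 0.0667, adjusted p = 0.1 over 3 ratios). This p is the smallest that the test allows, and the test takes no account of which clone a library came from. By clone, the ratio was 1.75 lower than WT in KO1 and 1.02 lower in KO2.

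Of 7 genes of proteins that associate with PRC1.6, 1, TFDP2, was called, lower in KO2, by edgeR's quasi-likelihood test, against 12.5% of tested genes. At the adjusted p alone, 1 was higher in each clone, against 24.1% of tested genes in KO1 and 26.2% in KO2. In each clone 3 were lower, against 21.1% and 24.2%. HDAC1 was the gene that was higher, and EHMT2 and TFDP2 were lower in both clones, with CBX3 in KO1 and EHMT1 in KO2. The median log2 fold change was −0.13 in each. TFDP2, the paralog of TFDP1, had 1764 and 1900 counts in WT, 1440 and 1339 in KO1, and 1236 and 1206 in KO2. It fell by 0.63 on the log2 scale in KO2 (adjusted p = 2.5e-08) and its value in KO1, −0.58 (adjusted p = 1.4e-07, same test), lay just under the threshold, while TFDP1 differed by 0.02 and 0.11. EHMT2, the H3K9 methyltransferase G9a, was at −0.40 in KO1 (adjusted p = 1.1e-05) and −0.52 in KO2 (adjusted p = 2.1e-07, same test), and its partner EHMT1 at −0.13 and −0.21. The histone deacetylase gene HDAC1 was at 0.32 and 0.16, HDAC2 at −0.07 and 0.10, and WDR5, a shared subunit of several chromatin complexes, at 0.01 and 0.08. CBX3, which encodes HP1γ, was at −0.22 and −0.13.

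**Figure D3:**
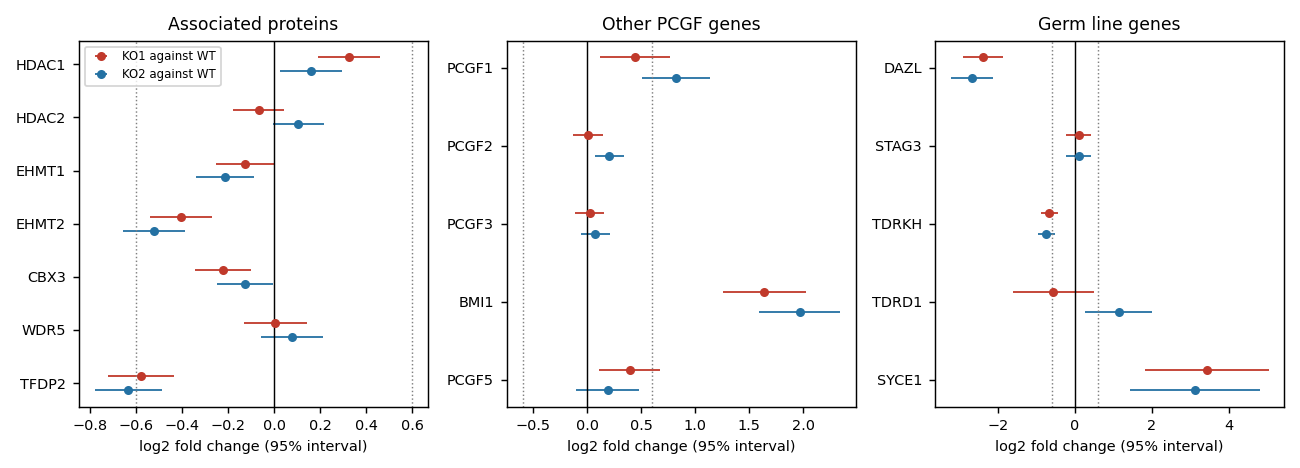
Log2 fold change with 95% intervals from edgeR's quasi-likelihood fit for 7 associated proteins, 5 other PCGF genes and the 5 of 14 germ line genes that passed the filter on low counts, in KO1 and KO2 against WT; dotted lines mark 0.6 in either direction, and each panel has its own scale. BMI1 is at 1.64 and 1.97, TFDP2 is at −0.58 and −0.63, and DAZL is at −2.39 and −2.67.

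Loss of Pcgf6 is described in the study as de-repressing germ line genes in mouse embryonic stem cells. Most genes on a list of germ line genes were at low counts in every group here. In WT, the mean level was 25.8 CPM for TDRKH, 6.91 CPM for STAG3 and 6.21 CPM for DAZL, so these 3 were not silent. Of 14 listed, 9 had at most 13 counts in any library and were not tested, among them HORMAD1 with 0 counts in all 6 libraries and DDX4 with at most 4. Of the 5 tested, DAZL and TDRKH were called lower in both clones, where 8.8% (KO1) and 12.5% (KO2) of all tested genes were. TDRD1 was called higher in KO2, where 16.9% of all tested genes were. DAZL, an RNA-binding protein of germ cells, had 94 and 111 counts in WT, 24 and 20 in KO1, and 14 and 19 in KO2, and fell by 2.39 and 2.67 on the log2 scale (edgeR's adjusted p = 1.5e-08 and 4.3e-09). TDRKH, a Tudor protein of the piRNA pathway, fell by 0.67 and 0.75. SYCE1, a synaptonemal complex gene, had 1 count in each WT library, 16 and 11 in KO1, and 10 and 10 in KO2. It passed the filter on low counts only through the PCGF6-KO libraries, so its call as higher in both clones is not counted. TDRD1 had 11 and 10 counts in WT, 6 and 10 in KO1, and 24 and 24 in KO2, higher in KO2 than in KO1 by 1.69 on the log2 scale (adjusted p = 0.00708, same test). STAG3, a meiotic cohesin subunit, differed by 0.09 in each clone (adjusted p = 0.656 and 0.648).

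YAF2 lies on chromosome 12. Of its 4 tested protein-coding neighbours within 1 Mb, up to 3 on each side, PRICKLE1, a planar cell polarity gene, was the 1 called. It was lower in each clone, with log2 fold changes of −0.93 and −0.81, where 8.8% and 12.5% of tested genes were called lower. PPHLN1, which starts 81.3 kb from the start of YAF2, differed by −0.06 and −0.02, and GXYLT1 on the other side by −0.17 and −0.16. The median of all 822 tested genes matched to the chromosome was −0.01 in each clone. Around RYBP on chromosome 3, 1 of 6 neighbours (PROK2) was called higher in KO1 and 4 (PROK2 among them) in KO2, against 16% and 16.9% of tested genes. PROK2 passed the filter on low counts only through the PCGF6-KO libraries, so its calls as higher are no result. The median of the 6, with PROK2 included, was 0.41 and 1.03, where that of the 889 tested genes matched to the chromosome was −0.01 and 0.01. PROK2 was at 1.08 and 1.57 on 14 and 8 counts in WT, and GXYLT2 at 0.36 and 1.04 on 19 and 28. EIF4E3 was at 0.46 and 1.02, and GPR27 at 0.59 and 1.16. SHQ1, the nearest by start at 377.5 kb, was at 0.12 and 0.03, and PPP4R2 at −0.05 and 0.11. Whether these neighbours and RYBP share a change was not tested. Around PCGF6, 1 of 6 neighbours was called lower in KO1 (TAF5, −0.85), against 8.8% of tested genes. In KO2, 2 were called higher (INA, 0.88, and CALHM2, 0.67), against 16.9%.

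Across the 6 libraries, 5 members had all PCGF6-KO libraries above both WT libraries and 1, PCGF6, had them below, against 29.5% and 27.6% of all tested genes (57.1% in either direction). The members above were YAF2, RYBP, E2F6, L3MBTL2 and RING1, of which the last 2 did not pass the adjusted test. As a description, the genes whose log2 CPM was most like that of PCGF6 over the 6 libraries, among 6078 genes with a mean of at least 5 log2 CPM, were FADS1 (Pearson's r = 0.998), INPP5F (0.998) and ZNF43 (0.997). For YAF2 they were EOGT (0.9985), EML1 (0.998) and SEMA3E (0.998), and 33 genes had an r over 0.99. For PCGF6, 11 genes did. These points share libraries and fall into 3 groups.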

How the data were processed

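RNA-seq counts of 6 libraries were used, 2 each of WT, KO1 and KO2. Per the labels and the study's methods, the authors used Trim_galore (v0.6.2) for trimming, HISAT2 (v2.1.0) for alignment against GRCh38, and featureCounts. They deposited raw counts per gene and, as the other deposited column, gene lengths in bases. The annotation release and the strand setting are not given in the sources used here. The 12 ChIP-seq samples were not analysed here.

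The members and lists were chosen with earlier results of these data known. From the counts, R 4.3.3 with edgeR 4.0.16 and limma 3.58.1 was used, with filterByExpr on 3 groups (17672 genes kept), TMM, glmQLFit and glmQLFTest, and p was adjusted over all tested genes. Following the study's methods, genes were called at an adjusted p below 0.05 with a log2 fold change beyond 0.6 in either direction. The standard error was taken as the fold change over the root of F. The common biological coefficient of variation was 0.0524. The filter, fit and calls were run on simulated counts with changes placed in KO1 only, which checks the code and not the error rate in these data. Named genes were the 10 members and, from the lists, those called in a clone or beside a member result; other list genes in the text were named after their values were seen. Neighbours, exons and overlaps came from GENCODE release 44 by symbol (15632 of 17672 tested genes matched). Likeness used a prior count of 2. The alternatives tried were upper-quartile and RLE scaling, DESeq2 (1.42.0), no filter or at least 10 counts in every library, only the groups compared, the replicate block, the adjusted p alone, and leaving out each library. Python 3.11.15, numpy 2.4.6, pandas 2.3.3 and matplotlib 3.10.9 served the other steps.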

Additional observations from a re-analysis of the deposited data

Results flagged for a closer look

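PCGF6 differed between the clones by the test of the difference itself. It was 0.90 higher on the log2 scale in KO2 than in KO1 (edgeR's quasi-likelihood test, Benjamini-Hochberg adjusted p = 5.4e-05), with 10.3 and 9.91 CPM in KO2 and 5.18 and 5.67 CPM in KO1. It was higher in 2 of 2 libraries, and the difference lay between 0.84 and 0.96 over the alternatives tried. No group held the 4 samples that a check of single libraries needs.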

How the results depend on the processing

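Of 390 member fold changes under the alternatives, 369 kept their direction and their call (adjusted p and fold change together), 20 changed sign, all in values that were not called, and 1 became a call. The adjusted p alone crossed 0.05 in 10 of the 390, which were 5 for MGA, 4 for RNF2 and 1 for YAF2 (between the clones, 0.0451 with the replicate block). The calls of PCGF6 and YAF2 in both clones, and of PCGF6 between the clones, held under every alternative. With the adjusted p alone, 8002, 8904 and 3442 genes passed for KO1, KO2 and KO2 against KO1, where 4379, 5197 and 1390 were called, and 5 and 4 members in KO1 and KO2. DESeq2 called 810 genes between the clones, 803 of them shared. Under upper-quartile normalization, the value of TFDP1 in KO1 was −0.0021, and between the clones that of L3MBTL2 was −0.0139, of RING1 −0.0075 and of RYBP −0.0169. With only the 2 groups compared, the difference between the clones was −0.0026 for L3MBTL2 and −0.0053 for RYBP.

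When each library was left out in turn, the KO1 value lay between −0.0422 and 0.248 for MGA, between −0.168 and 0.0125 for MAX and between −0.0111 and 0.054 for TFDP1. The KO2 value lay between −0.0184 and 0.151 for MAX and between −0.0141 and 0.185 for RNF2. The difference between the clones lay between −0.07 and 0.0854 for L3MBTL2, −0.0977 and 0.193 for MGA, −0.0597 and 0.0373 for E2F6, −0.0187 and 0.055 for RING1, and −0.0861 and 0.0992 for RYBP. The log2 ratio of YAF2 to RYBP, PCGF6-KO against WT, lay between 1.85 (without replicate 2 of WT) and 2.34 (without replicate 1), that of RNF2 to RING1 between −0.0132 and 0.103, and that of PCGF6 to the other PCGF genes between −1.51 and −1.23. Where a single library is left in a group, it is assumed to vary like the others. The cause of these shifts was not tested.

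Same-numbered libraries deviated together with r = 0.05 (WT and KO1), 0.07 (WT and KO2) and 0.15 (KO1 and KO2) across 14850 genes, and the labels name no shared culture or day, so the numbers were not taken to pair them. With the replicate block, 4420, 5233 and 1484 genes were called and 2, 2 and 1 members, and the adjusted p of MGA in KO2 was 0.0347. Low counts limit YAF2 in WT, where replicates of 31 and 23 counts set the range of its fold change, 2.56 to 3.02 in KO1 and 2.17 to 2.64 in KO2.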

Other observations

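Over all 10 members, 55 tested protein-coding neighbours were found, of which 7 were called in KO1, 2 higher and 5 lower, and 14 in KO2, 10 higher and 4 lower. Those called higher include PROK2 in both clones, and DNAJB7 and GPX2 in KO2. These genes passed the filter on low counts only through the PCGF6-KO libraries, so their calls as higher are no result. Of all tested genes, 24.8% were called in KO1 (16% higher and 8.8% lower) and 29.4% in KO2 (16.9% higher and 12.5% lower). The neighbours were not tested as a set, and these counts are no result about them. Of the neighbours of MGA, the receptor tyrosine kinase gene TYRO3 had log2 fold changes of −1.19 and −1.32, with 1740 and 1799 counts in WT and between 680 and 958 in the PCGF6-KO libraries. Near RNF2, C1orf21 was at −1.23 and −0.92. ADPRHL1, beside TFDP1, was higher in KO2 than in KO1 by 1.11, with 69 and 35 counts in KO2 and 26 in each KO1 library, so its replicates differed widely.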
